A study of Homo sapiens with 48 samples.

Results

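The genes described here are 10 regulators of G protein signalling (RGS genes), namely RGS16, RGS1, RGS2, RGS3, RGS4, RGS10, RGS12, RGS14, RGS19 and RGS20, in uveal melanoma cells treated with an inhibitor of chromatin remodelling or of protein kinase C. They were selected on their measured levels in DMSO and their drug responses at 4 and 24 h in these same 48 RNA sequencing libraries, so those values, and the differences built from them between times, lines, drugs and DMSO sets, are given as a description with no p-value. Where a value of these genes is said to be called, this describes which side of the threshold of the edgeR fit it fell on and is no independent evidence. Counts of these genes at an unadjusted p are given in the same sense. They are 10 of 22 protein-coding genes with an RGS number or RGSL1 as symbol in the annotation, and 10 of 58870 genes in the count tables. The lines were 92-1, MEL202 and MP41, each labelled as wild type and as 1 cell line of uveal melanoma, a cancer of the pigment cells of the eye. Each line was given FHT-1015, which blocks SMARCA4 and SMARCA2, the ATPases of BAF chromatin remodelling complexes, or the solvent DMSO, for 4 or 24 h. Line 92-1 was also given IDE196, an inhibitor of protein kinase C, or a separate set of DMSO cultures, for the same times. There were 16 groups with 3 biological replicates each, and the labels name no dose. The 12 libraries of a line, a drug and its own DMSO are called an experiment below. The title of the series concerns blocking BAF complexes in cancers that depend on transcription factors.

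A heterotrimeric G protein signals while its alpha subunit holds GTP, and an RGS protein ends the signal by speeding the hydrolysis of that GTP. Most uveal melanomas carry a mutation in GNAQ or GNA11 that keeps the alpha subunit loaded with GTP, and the signal then runs through phospholipase C beta to protein kinase C and, through RASGRP3, to the MAP kinases. Several RGS genes are themselves induced by the receptors and kinases that they restrain, RGS2 and RGS16 among them. By sequence, RGS16, RGS1, RGS2, RGS3 and RGS4 belong to the small R4 class, RGS10, RGS12 and RGS14 to the R12 class, and RGS19 and RGS20 to the RZ class.

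RGS16 and RGS2 had the largest falls with IDE196 and the largest rises with FHT-1015 at 4 h in 92-1 among the 10 genes, so the bases that precede their transcription starts are shown. Both lie on chromosome 1, RGS16 at chr1:182598623-182604408 on the minus strand and RGS2 at chr1:192809039-192812283 on the plus strand (GRCh38, GENCODE release 29). The sequences are the 250 bases before the RefSeq start in GRCh38.p14, at chr1:182604390-182604639 on the minus strand for RGS16 and at chr1:192808789-192809038 on the plus strand for RGS2. They are written 5′ to 3′ on the strand of the gene, and the capitals mark every match to the motifs searched.
RGS16: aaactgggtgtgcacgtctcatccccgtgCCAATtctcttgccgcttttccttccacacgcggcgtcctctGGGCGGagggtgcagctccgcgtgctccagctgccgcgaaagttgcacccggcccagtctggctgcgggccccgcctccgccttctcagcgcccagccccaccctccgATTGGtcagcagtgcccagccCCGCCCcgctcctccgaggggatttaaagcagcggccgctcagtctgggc
RGS2: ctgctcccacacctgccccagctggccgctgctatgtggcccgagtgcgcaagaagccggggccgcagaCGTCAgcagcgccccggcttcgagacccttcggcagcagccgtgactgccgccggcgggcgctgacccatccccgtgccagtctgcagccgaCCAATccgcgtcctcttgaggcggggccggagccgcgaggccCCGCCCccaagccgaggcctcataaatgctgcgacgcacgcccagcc

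The G and C content of these windows was 68.4% for RGS16 and 72.8% for RGS2, against a median of 58% over 35116 RefSeq promoters of that length. Motifs were searched on both strands. The CCAAT box (CCAAT) was found in 32.01% of the promoters, and RGS16 held it at -221 and, on the other strand, at -71, while RGS2 held it at -89. The GC box (GGGCGG), present in 42.64% of promoters, stood at -179 and -50 in RGS16 and at -47 in RGS2. The core of the cAMP response element (TGACG), present in 21.22% of promoters, matched RGS2 at -181 on the other strand and did not match RGS16. Neither window held the whole cAMP response element (TGACGTCA, 1.65% of promoters, which contains the core), the AP-1 site (TGANTCA, 6.57%), the E-box (CACGTG, 6.34%), the NR4A site (AAAGGTCA, 1.05%), the TATA box (TATAAA, 10.72%) or the CArG box (1.16%). A match is a match of letters only, and these letters being absent from the window says nothing of binding elsewhere.

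The libraries held between 11394088 and 32317711 reads assigned to genes. Reads of 20023 to 27150 genes were found in a library, apart from 1, MEL202 with FHT-1015 at 4 h replicate 2, which held 17592 and stood below the other 47. All 10 melanocyte markers examined, with MITF, SOX10 and PMEL among them, were over 1 CPM (counts scaled to library size) on average in DMSO in each line. Summed over the 10 markers they reached 16700 to 23500 CPM in 92-1, 8340 to 10100 in MEL202 and 12300 to 16200 in MP41, and with the drugs as little as 5100, 2920 and 5550. The shares of all genes called at 24 h in either direction were 60.6% in 92-1, 18.8% in MEL202 and 36.1% in MP41 with FHT-1015 and 58.1% in 92-1 with IDE196. Beside these shares, 9 of the 10 markers were called lower with FHT-1015 at 24 h in each line. With IDE196 at 24 h 4 were called, 2 lower and 2 higher. At 4 h 5 were called lower and 1 higher with FHT-1015 in 92-1, where 29.5% of all genes were called. In MEL202, in MP41 and in 92-1 with IDE196 1 was called lower at 4 h, where 0.679%, 0.225% and 16.2% of all genes were called. The part of these changes in the RGS values was not tested. None of 5 immune and none of 3 endothelial markers averaged over 1 CPM in DMSO in any line. Of 6 fibroblast markers 1, 2 and 3 did so in 92-1, MEL202 and MP41, of 4 keratinocyte or epithelial markers 3 in 92-1 and none in the others, and of 3 markers of retinal pigment epithelium 1 in 92-1, none in MEL202 and 2 in MP41. The marker levels of 92-1 pool its 2 DMSO sets, which were unlike. Of the 4 keratinocyte or epithelial markers, 1 had reads enough to be tested beside FHT-1015 and 4 beside IDE196. Of the 6 fibroblast markers, 3 and 5 did. The fibroblast markers summed to 2.84 to 41.2 CPM in 92-1 DMSO, 6.46 to 7.91 in MEL202 and 19.8 to 43.3 in MP41, and with the drugs to 3.47 to 32.5, 8.17 to 43.5 and 22.5 to 40.4. With FHT-1015 at 24 h 2 of 3 tested were called higher and 1 lower in 92-1, 2 of 4 higher in MEL202 and none of 5 in MP41, to be read beside the 24 h shares above. The part of these markers in the RGS values was not tested. In these bulk samples, fewer cells with a transcript and less of it per cell cannot be told apart. Values in single libraries are TMM-normalised CPM, means are given with the SD over 3 replicates, and log2 fold changes carry the standard error (SE) of the edgeR fit. A change is called here when edgeR's quasi-likelihood test gave a Benjamini-Hochberg adjusted p under 0.05 over all genes tested.

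In DMSO cells, 8 of the 10 genes had reads enough to be tested in every line, and RGS1 and RGS4 in MEL202 alone. To compare genes with each other, the levels were divided by the length of their merged exons. RGS20, a GTPase activator for the alpha subunit Gz, had the highest level per kilobase in both DMSO sets of 92-1, at 39.8 CPM per kilobase at 4 h and 40.6 at 24 h beside FHT-1015 and at 21.6 and 24.03 beside IDE196. RGS2, which acts by preference on Gq, stood highest in MEL202, at 206.6 and 230.6 CPM per kilobase. No member stood so far above the others in MP41, where RGS19 and RGS14 led at 24 h with 15.0 and 14.8 CPM per kilobase, and RGS16 and RGS10 at 4 h, both with 11.2. This order depends on the merged length, which is 13793 bases for RGS3 and 13755 for RGS12 against 3192 for RGS20. In CPM not divided by length, RGS3 stood above RGS20 in the 92-1 DMSO set of IDE196, at 115 against 69.0 at 4 h. By that measure RGS12 was the highest member in MP41, at 53.6 CPM at 4 h and 87.1 at 24 h.

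**Figure D1:**
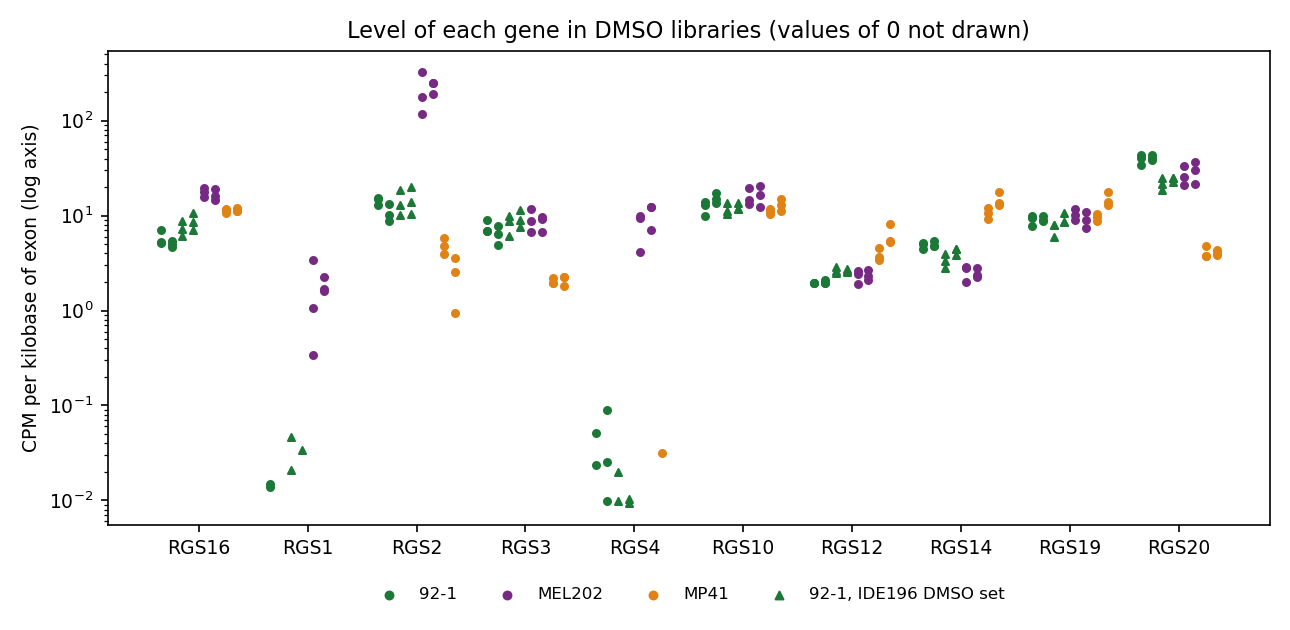
Level of the 10 RGS genes in the DMSO libraries, in CPM per kilobase of merged exon on a log axis; each point is 1 library, in pairs of columns for 4 h and 24 h, and values of 0 are not drawn. RGS2 and RGS4 are highest in MEL202, RGS12 and RGS14 in MP41, and RGS20 is lowest in MP41.

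RGS2 differed most between lines among the genes read in all of them. Its DMSO libraries at 4 h read 246, 374 and 679 CPM in MEL202, 31.9, 27.2 and 31.1 CPM in 92-1 beside FHT-1015, and 10.01, 8.17 and 12.1 CPM in MP41. The lines did not overlap, also with the second DMSO set of 92-1, at 21.5 to 39.1 CPM. RGS20 ran in another order, with 110 to 140 CPM in 92-1 beside FHT-1015, 66.5 to 106 CPM in MEL202 and 11.97 to 15.4 CPM in MP41 at 4 h. MP41 lay well below the others, and the second DMSO set of 92-1, at 59.0 to 79.7 CPM, overlapped MEL202. In MP41, RGS14, a scaffold that also binds Ras proteins, averaged 40.5 ± 5.4 CPM in DMSO at 4 h against 18.6 ± 1.4 and 12.9 ± 2.2 in the DMSO sets of 92-1 beside FHT-1015 and IDE196 and 9.76 ± 1.9 in MEL202 (SD, n = 3 each). RGS12, the largest protein of its class, averaged 53.6 ± 8.1 CPM in MP41 against 31.98 ± 5.1 in MEL202 (SD, n = 3 each). In 92-1 it averaged 26.6 ± 0.13 CPM beside FHT-1015 and 36.5 ± 2.4 beside IDE196 (SD, n = 3 each), so 92-1 lay below the MEL202 mean with one set and above it with the other. MEL202 read 26.3 to 36.2 CPM and overlapped both sets. RGS10 and RGS19 differed little between the lines at 4 h, with DMSO group means from 13.97 to 19.7 CPM for RGS10 and from 14.7 to 20.8 for RGS19. At 24 h RGS10 averaged 15.4 to 20.5 CPM over the DMSO groups, while RGS19 read 26.4 to 36.3 CPM in MP41, above the 15.1 to 22.3 of MEL202 and the 17.2 to 21.4 of the 92-1 sets. Each experiment, as the term is used here, holds libraries of a single line, and the sample titles name no run or batch. Line thus cannot be told apart in these levels from any other difference between the experiments.

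RGS16, which acts on Gi and Gq alpha subunits, rose and then fell in 92-1 with FHT-1015. At 4 h the DMSO libraries read 17.0, 12.7 and 12.4 CPM and the FHT-1015 libraries 35.5, 27.2 and 31.1 CPM. At 24 h the DMSO libraries read 11.4, 12.3 and 13.2 CPM and the FHT-1015 libraries 4.67, 4.56 and 7.78 CPM. Every treated library thus lay above its DMSO libraries at 4 h and below them at 24 h. The log2 fold change was 1.13 (SE 0.17) at 4 h and -1.12 (SE 0.20) at 24 h.

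The same gene was read in the other lines as follows. In MP41 the DMSO libraries held 25.6 to 28.2 CPM at 4 h and the FHT-1015 libraries 35.0 to 38.0, and at 24 h 27.3 to 28.97 CPM stood against 6.48 to 8.59. The groups did not overlap at either time, with log2 fold changes of 0.41 (SE 0.14), not called, at 4 h and of -1.79 (SE 0.15) at 24 h. In MEL202 the libraries read 47.1, 38.5 and 43.1 CPM in DMSO and 60.6, 69.7 and 70.3 CPM with FHT-1015 at 4 h, with no overlap. At 24 h they read 35.4, 39.4 and 46.6 CPM in DMSO and 35.8, 51.8 and 56.9 CPM with FHT-1015, which overlap. The log2 fold changes in MEL202 were 0.63 (SE 0.22) and 0.27 (SE 0.21), and neither was called.

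RGS2 moved upward in 92-1 at both times. Its libraries read 31.9, 27.2 and 31.1 CPM in DMSO against 64.8, 61.5 and 94.2 CPM with FHT-1015 at 4 h. At 24 h they read 18.6, 21.2 and 28.1 CPM against 189, 122 and 79.0 CPM, so the treated libraries were all higher and spread widely among themselves. The log2 fold change was 1.27 (SE 0.25) at 4 h and 2.50 (SE 0.26) at 24 h. In MP41, where the gene was low, the libraries read 5.35, 1.97 and 7.54 CPM in DMSO and 8.26, 11.2 and 14.5 CPM with FHT-1015 at 24 h. That difference, 1.21 (SE 0.38) on the log2 scale, was called with all libraries and not without 24 h DMSO replicate 1 (1.255), FHT-1015 replicate 2 (1.217) or FHT-1015 replicate 3 (1.005), nor with only the groups compared in the fit (1.168). At 4 h in MP41 the value was 0.92 (SE 0.37), not called, although the treated libraries again lay above the DMSO libraries. In MEL202, the line with most RGS2, the treated libraries read 528, 201 and 739 CPM at 4 h and 486, 635 and 612 CPM at 24 h, against 526, 404 and 520 CPM in DMSO at 24 h. The groups overlapped at both times, with log2 fold changes of 0.15 (SE 0.41) and 0.28 (SE 0.41). Replicate 2 at 4 h, the library with few genes read, was the lowest of the treated ones, and without it the value at 4 h was 0.52; without DMSO 4 h replicate 3, the highest DMSO library, it was 0.656, and without FHT-1015 4 h replicate 3 it was -0.255.

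**Figure D2:**
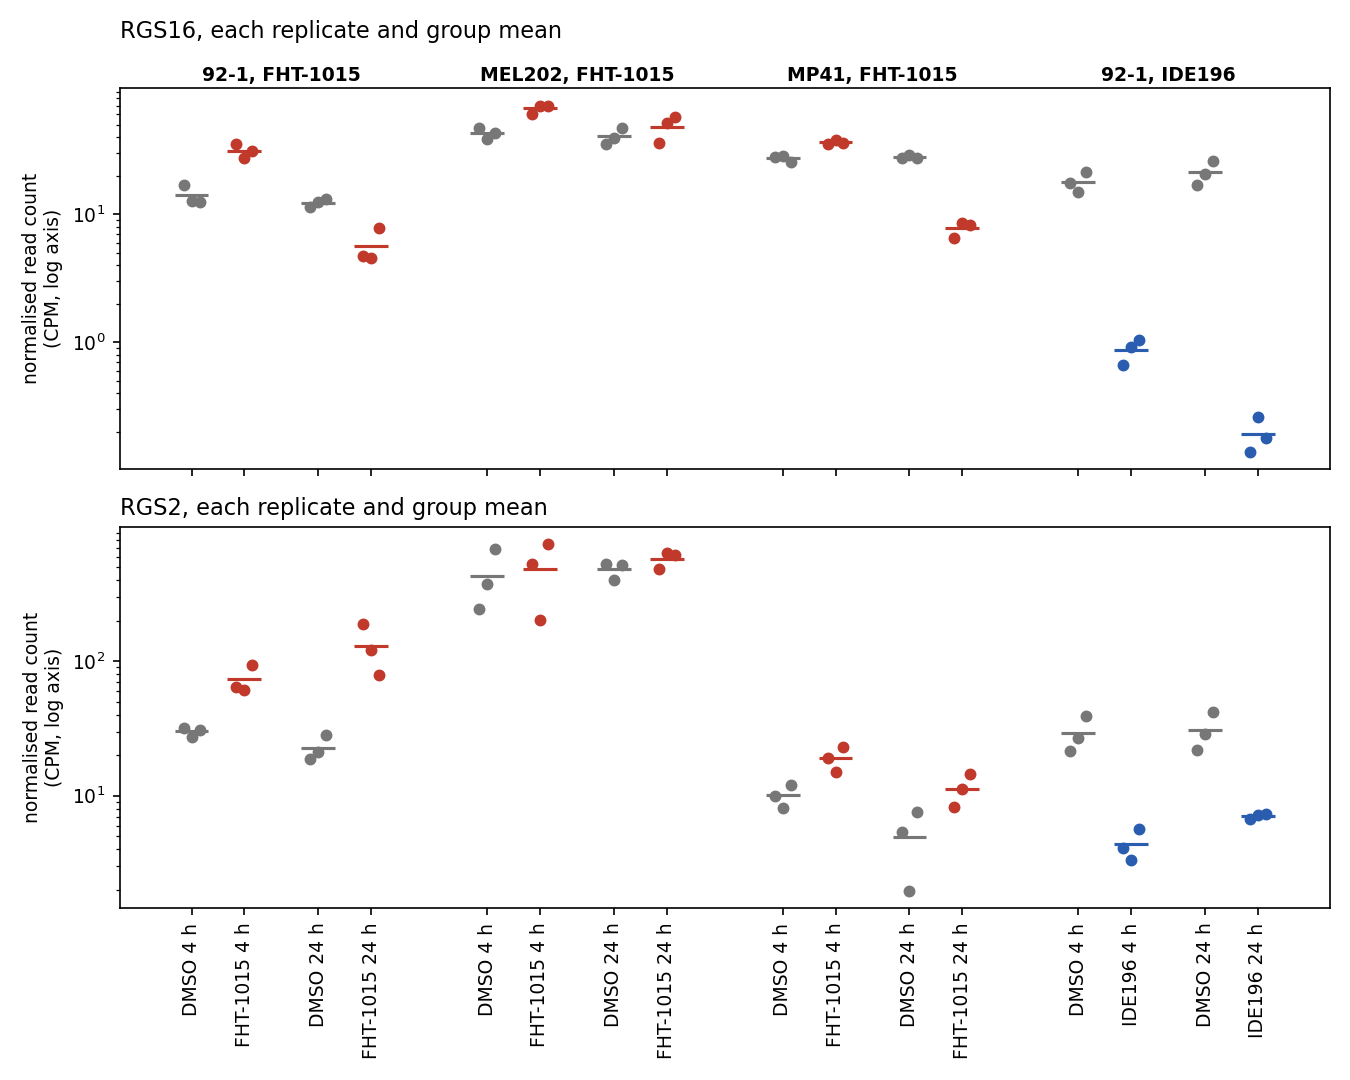
Normalised read count of RGS16 (top) and RGS2 (bottom) in every library, in CPM on a log axis, by line, drug and time; points are replicates, bars are group means, grey is DMSO, red FHT-1015 and blue IDE196. With IDE196, RGS16 lies between 0.140 and 1.04 CPM, against 14.9 to 25.7 CPM in the DMSO libraries of that experiment.

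Of the other R4 genes, RGS4 had the largest change in MEL202 and RGS3 changed in 92-1. RGS4, an activator of GTP hydrolysis on Gi and Gq best known from brain and heart, read 34.2, 59.2 and 59.3 CPM in MEL202 DMSO at 24 h and 197, 230 and 245 CPM with FHT-1015. At 4 h it read 20.2, 48.2 and 45.5 CPM in DMSO against 31.2, 24.9 and 49.9 CPM. The treated libraries stood far above DMSO at 24 h and among them at 4 h, with log2 fold changes of 2.16 (SE 0.34) and -0.11 (SE 0.33). The value at 4 h ran from -0.43, without FHT-1015 replicate 3, to 0.074, without FHT-1015 replicate 2, as single libraries were left out. In the other experiments RGS4 had at most 7 reads in any library, apart from 18 reads in replicate 3 of 92-1 with FHT-1015 at 24 h, and it was too low to be tested. RGS3 averaged 87.7 ± 21 CPM in 92-1 DMSO at 24 h and 143 ± 24 with FHT-1015 (SD, n = 3 each), a log2 fold change of 0.68 (SE 0.20), with every treated library above the DMSO libraries. In MP41 at 4 h it stood at -0.46 (SE 0.16), not called, with every treated library (18.2 to 23.2 CPM) below DMSO (26.8 to 30.1 CPM). Its value was -0.07 (SE 0.20) in 92-1 at 4 h, -0.29 (SE 0.16) in MP41 at 24 h and 0.05 (SE 0.26) in MEL202 at 24 h, none of them called; the MP41 value was called, at -0.43, without DMSO 24 h replicate 3.

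RGS1, a lymphocyte gene, was low in MEL202, where its DMSO libraries read 1.40, 4.42 and 14.1 CPM at 4 h and 6.68, 6.86 and 9.24 at 24 h. With FHT-1015 they read 2.62, 0.965 and 9.94 CPM at 4 h and 1.18, 4.18 and 5.31 at 24 h. All treated libraries at 24 h lay below the DMSO libraries, and the log2 fold change of -1.07 (SE 0.80) was not called. At 4 h the value was -0.58 (SE 0.80), and it was 0.643 without DMSO replicate 3 and -1.896 without FHT-1015 replicate 3. The 5 immune markers summed to between 0.628 and 1.12 CPM in MEL202 DMSO and to between 0.0931 and 4.57 CPM with FHT-1015, none of the 5 averaging over 1 CPM in DMSO. The 1 of them that was tested, PTPRC, stood at 1.62 (SE 0.68), not called, at 4 h and was lower at 24 h, at -3.20 (SE 0.88). Their part in the RGS1 level was not tested. In 92-1 and MP41 RGS1 had at most 4 reads in a library.

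In the R12 class, RGS12 was lower in 92-1 at 4 h and in MP41 at 24 h, while RGS14 was called in no FHT-1015 comparison by edgeR per experiment. RGS12 read 26.5, 26.8 and 26.6 CPM in 92-1 DMSO at 4 h and 12.8, 13.2 and 16.1 CPM with FHT-1015, a log2 fold change of -0.95 (SE 0.10). At 24 h it was close to DMSO again, with 24.4 to 25.4 CPM against 26.5 to 28.6 CPM and a value of -0.17 (SE 0.10), not called. In MP41 at 24 h it read 74.5, 113 and 73.3 CPM in DMSO and 38.5 to 40.02 CPM with FHT-1015, with a log2 fold change of -1.07 (SE 0.17). At 4 h in MP41 it read 47.4 to 62.7 CPM in DMSO and 37.0 to 44.1 CPM with FHT-1015, again without overlap, with a value of -0.39 (SE 0.17), not called. The treated mean was thus 41.05 ± 3.6 CPM at 4 h and 39.5 ± 0.89 CPM at 24 h, while the DMSO mean was 53.6 ± 8.1 and 87.1 ± 23 CPM (SD, n = 3 each). In MEL202 at 24 h RGS12 read 43.7 to 46.9 CPM with FHT-1015 against 28.9 to 36.4 CPM in DMSO, without overlap, and its value of 0.52 (SE 0.21) was not called. It was called there without FHT-1015 4 h replicate 2, the library with few genes read, again at 0.52. RGS10, a small regulator of Gi, was called higher in MP41 at 24 h, at 0.60 (SE 0.18), with 19.98 to 25.97 CPM against 13.8 to 18.6 CPM. That call was lost without DMSO replicate 2 (0.46), FHT-1015 replicate 2 (0.55) or FHT-1015 replicate 3 (0.54), and also without the filter or with only the groups compared in the fit. RGS14 stayed between -0.18 (SE 0.22) and 0.49 (SE 0.22) on the log2 scale over the 6 FHT-1015 comparisons. The lower limit is that of MEL202 at 4 h, which was -0.357 without DMSO replicate 2. The upper limit, MEL202 at 24 h, and the RGS12 value there were called by limma-voom and with only the groups compared or all 48 libraries in a fit.

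In the RZ class, RGS20 fell at 24 h in the lines that held most of it. In 92-1 it read 124, 137 and 128 CPM in DMSO and 32.05, 37.5 and 33.5 CPM with FHT-1015 at 24 h, a log2 fold change of -1.94 (SE 0.14). In MEL202 it read 116, 69.6 and 97.6 CPM in DMSO and 26.5, 36.2 and 30.2 CPM with FHT-1015, a log2 fold change of -1.59 (SE 0.29). The groups were apart in both lines at 24 h and overlapped at 4 h, where the values were -0.11 (SE 0.13) and 0.01 (SE 0.28). In MP41 the gene read 9.77 to 13.4 CPM with FHT-1015 and 12.4 to 14.02 CPM in DMSO at 24 h, which overlap, with a value of -0.11 (SE 0.18). RGS19, a regulator of Gi found on vesicles, averaged 18.3 ± 2.4 CPM in DMSO and 28.8 ± 6.3 CPM with FHT-1015 in 92-1 at 4 h (SD, n = 3 each). Its log2 fold change there was 0.63 (SE 0.15), and the groups did not overlap. It was lower in MP41 at 24 h at -0.52 (SE 0.19), a call that was lost when any of 8 libraries of MP41 was left out (DMSO 24 h replicate 1 or 2, any DMSO 4 h or any FHT-1015 24 h library), with values of -0.607 to -0.425, and also without the filter or with only the groups compared in the fit. At 4 h in MP41 it stood at 0.47 (SE 0.19), not called, with every treated library (22.05 to 34.5 CPM) above DMSO (17.7 to 21.3 CPM), and at 0.261 without FHT-1015 4 h replicate 1. Its DMSO mean in MP41 was 19.6 ± 1.8 CPM at 4 h and 30.4 ± 5.2 at 24 h, and its treated mean 27.2 ± 6.5 and 20.2 ± 2.1 CPM (SD, n = 3 each).

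The 10 genes were unevenly covered by the tests. After the filter on low counts, 8 of them were tested in each experiment of 92-1 and in MP41, without RGS1 and RGS4, and 10 in MEL202. The spread between replicates beyond counting error also differed. Its coefficient of variation over all genes was 0.117 in 92-1 with FHT-1015, 0.294 in MEL202, 0.217 in MP41 and 0.112 in 92-1 with IDE196. A change of the same size is thus called less readily in MEL202 and MP41, so counts of calls do not rank the lines by response. With FHT-1015 in 92-1, 4 of 8 were called at 4 h, where 29.5% of all tested genes were, and 4 of 8 at 24 h, where 60.6% were. In MP41 none of 8 was called at 4 h by edgeR and 5 at an unadjusted p under 0.05, with 0.225% of all genes called, and DESeq2 called none and limma-voom 3. At 24 h 5 of 8 were called, against 36.1% of all genes, and 2 or 3 without MP41 24 h DMSO replicate 1 or 2 or FHT-1015 replicate 2 or 3. In MEL202 none of 10 was called at 4 h by edgeR and 1, RGS16, at an unadjusted p under 0.05, with 0.679% of all genes called, and DESeq2 and limma-voom called none. At 24 h 2 of 10 were called, against 18.8% of all genes, while limma-voom called 5, DESeq2 2, and edgeR 4 with only the groups compared or with all 48 libraries in a fit. The replicates of drug and DMSO did not overlap for 4 of 8 genes in 92-1 at 4 h, where this held for 43.7% of all genes, and for 7 of 8 at 24 h, where it held for 65%. In MP41 this was so for 5 of 8 genes at 4 h (20.9% of all genes) and for 5 of 8 at 24 h (42.3%), and in MEL202 for 1 of 10 (9.45%) and 5 of 10 (52%). The rule that named these genes used the same comparisons, so nothing is read from the shares.

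**Figure D3:**
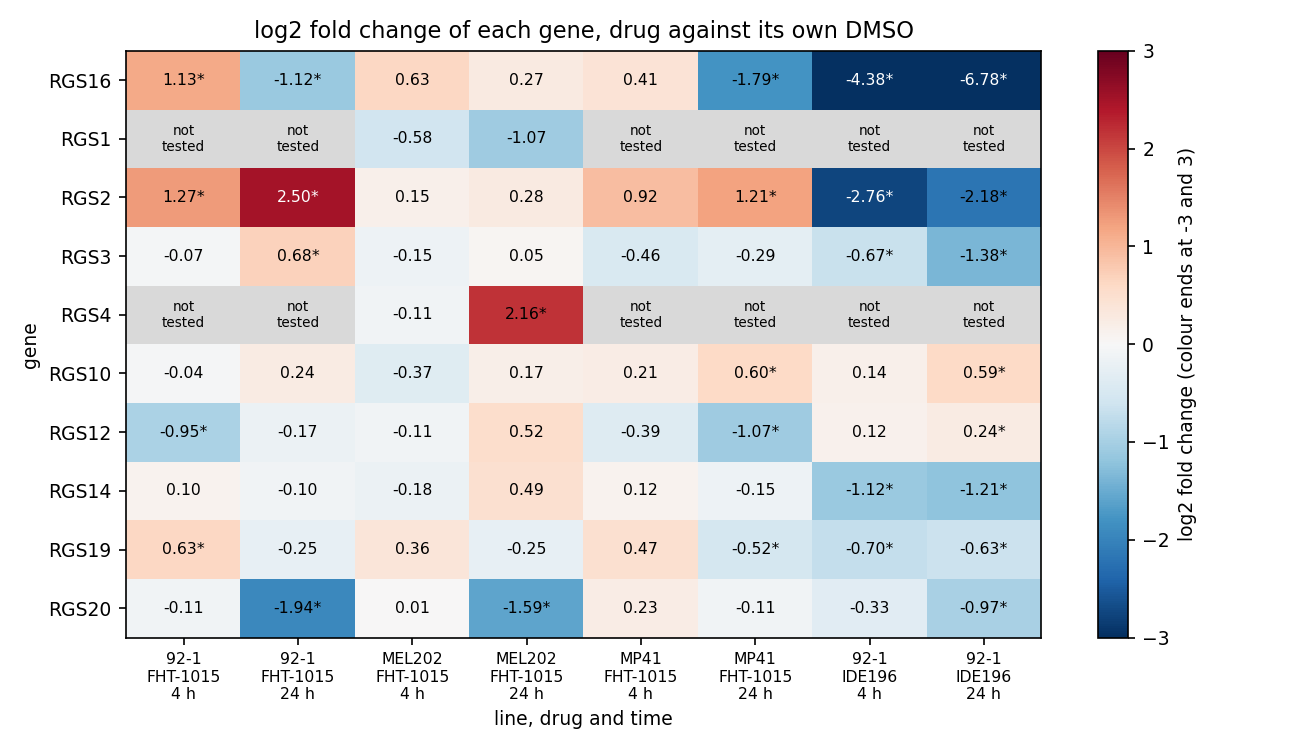
Log2 fold change of the 10 genes, each drug against its own DMSO, by line and time; an asterisk marks an adjusted p under 0.05 over all genes in the edgeR fit, and grey cells were too low to be tested. RGS16 runs from 1.13 with FHT-1015 to -6.78 with IDE196 in 92-1.

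The difference between the effects of FHT-1015 at 24 and 4 h was fitted as a contrast of its own. For the members it is built from the values that named them, so nothing is read from its counts. In 92-1 it was called for 6 of 8 genes, where it was for 45.5% of all tested genes. RGS16 had the largest difference, -2.25 (SE 0.26), and it crossed from above DMSO to below it. RGS20 followed with -1.83 (SE 0.18). RGS2 differed by 1.24 (SE 0.36), RGS12 by 0.79 (SE 0.14) and RGS19 by -0.88 (SE 0.21). RGS3 differed by 0.75 (SE 0.285), and this call was lost when any of 8 of the 12 libraries was left out, with values of 0.57 to 0.80 (DMSO 24 h replicate 1 or 2, DMSO 4 h replicate 2 or 3, FHT-1015 24 h replicate 2 or 3, FHT-1015 4 h replicate 1 or 2), and with DESeq2. With all 48 libraries in a fit the calls of RGS2 and RGS3 were lost. For RGS10 and RGS14 the difference was 0.28 (SE 0.23) and -0.20 (SE 0.17) and was not called.

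In MP41 the difference between times was called for 2 of 8 genes, where it was for 18.6% of all genes. RGS16 again differed by -2.20 (SE 0.20). RGS19 differed by -0.99 (SE 0.26), a call lost without DMSO 4 h replicate 3 (-0.92) or FHT-1015 24 h replicate 3 (-0.92). RGS12 was not called, at -0.68 (SE 0.24), and was called without DMSO 24 h replicate 3 (-0.85) or DMSO 4 h replicate 2 (-0.814), while without DMSO 24 h replicate 2 it was -0.501. In MEL202 the difference was called for 2 of 10 genes, where it was for 6.89% of all genes. RGS4 differed by 2.27 (SE 0.47), and by 2.09 without the FHT-1015 4 h library with few genes read. RGS20 differed by -1.60 (SE 0.40). That call was lost when any of 8 libraries was left out, with values of -1.73 to -1.42 (DMSO 24 h replicate 1 or 3, DMSO 4 h replicate 2, FHT-1015 24 h replicate 1, 2 or 3, FHT-1015 4 h replicate 1 or 3), and kept at -1.83 without FHT-1015 4 h replicate 2. The MEL202 difference of RGS16 was -0.36 (SE 0.30) and was not called.

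Between 4 and 24 h in DMSO alone, none of the genes was called in the 4 experiments by edgeR. At an unadjusted p under 0.05 there were none in 92-1 beside FHT-1015, none in MEL202, 2 in 92-1 beside IDE196 (RGS14 and RGS19) and 4 in MP41 (RGS2, RGS12, RGS14 and RGS19). Of all genes, 0.344% were called in 92-1 beside FHT-1015, 0% in MEL202, 2.59% in MP41 and 0.266% in 92-1 beside IDE196. In MP41 DESeq2 called 3 members and limma-voom 4, and in the other experiments both called none. The largest MP41 values were -1.06 (SE 0.38) for RGS2 and 0.61 (SE 0.17) for RGS12, and without DMSO 24 h replicate 3 edgeR called 4 members in MP41.

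**Figure D4:**
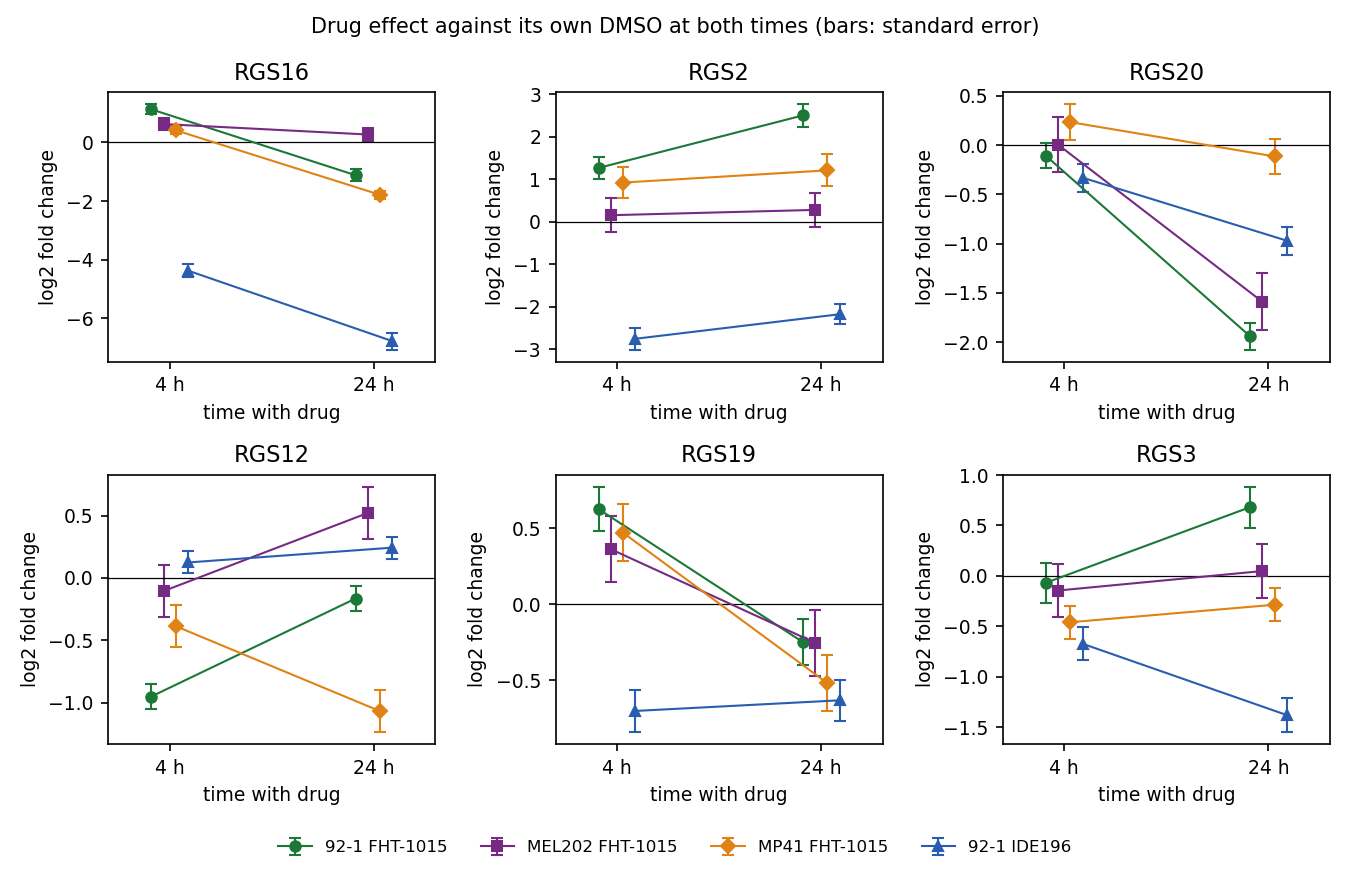
Log2 fold change at 4 and 24 h for 6 RGS genes, each drug against its own DMSO, with the standard error as bars; lines join the times of an experiment. RGS16 passes from above 0 to below 0 in 92-1 and MP41 with FHT-1015, at -1.12 and -1.79 by 24 h, and stays at 0.27 in MEL202.

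The effects of FHT-1015 in the 3 lines were set against each other by an edgeR F-test over the 36 libraries, in which each line's experiment is confounded with the line. RGS1 and RGS4 entered this fit through MEL202 only, with at most 1 and 18 reads in a library of the other lines, and the standard errors of their pairwise differences were 0.98 or more on the log2 scale. They had little room to show a difference and are left out of the counts. At 24 h 4 of the other 8 genes were called, where 12% of all tested genes were. For RGS16 the pairwise differences were 1.36 (SE 0.26) for MEL202 minus 92-1, -0.75 (SE 0.27) for MP41 minus 92-1 and -2.11 (SE 0.26) for MP41 minus MEL202. RGS12 ran in the same order, from -1.07 in MP41 through -0.17 in 92-1 to 0.52 in MEL202. RGS20 was called, with MP41 above 92-1 by 1.73 (SE 0.31). RGS2 was called, with a difference of -2.27 (SE 0.54) for MEL202 minus 92-1, and was not called without 92-1 FHT-1015 24 h replicate 1, the highest library. RGS3 and RGS14 were not called. RGS3 was called when any of 6 single libraries was left out, 2 of 92-1, 3 of MEL202 and 1 of MP41 (92-1 DMSO 24 h replicate 3 or FHT-1015 4 h replicate 3, MEL202 DMSO 24 h replicate 2 or DMSO 4 h replicate 2 or 3, MP41 DMSO 24 h replicate 3), and RGS14 without MEL202 DMSO 4 h replicate 2. At 4 h none of the 8 genes was called by edgeR and 2, RGS16 and RGS12, had an unadjusted p under 0.05, while 1.38% of all genes were called. There limma-voom called 1, RGS12, and DESeq2 was not run for this F-test.

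IDE196 nearly emptied 92-1 cells of RGS16 transcripts. Its DMSO libraries read 17.4, 14.9 and 21.2 CPM at 4 h, and the IDE196 libraries 0.662, 0.915 and 1.04 CPM, from 15, 17 and 18 reads. At 24 h they read 17.0, 20.7 and 25.7 CPM against 0.140, 0.263 and 0.178 CPM, from 3, 5 and 3 reads. The log2 fold change was -4.38 (SE 0.23) at 4 h and -6.78 (SE 0.29) at 24 h, and at so few reads the latter is set by counting error as well. RGS2 fell from 21.5, 27.1 and 39.1 CPM to 4.10, 3.34 and 5.64 CPM at 4 h, and from 21.9, 28.8 and 42.1 CPM to 6.758, 7.198 and 7.259 CPM at 24 h. Its log2 fold change was -2.76 (SE 0.25) and -2.18 (SE 0.24), with all treated libraries far below DMSO.

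RGS14 fell from 10.8, 15.1 and 12.7 CPM to 5.69, 5.71 and 6.502 CPM at 4 h, with log2 fold changes of -1.12 (SE 0.14) at 4 h and -1.21 (SE 0.14) at 24 h. RGS19 fell by a like amount at both times, at -0.70 (SE 0.14) and -0.63 (SE 0.14). RGS3 stood at -0.67 (SE 0.17) at 4 h, a call lost without DMSO 4 h replicate 6 (-0.53) or with all 48 libraries in a fit, and at -1.38 (SE 0.17) at 24 h, with 45.0 to 56.2 CPM against 104 to 157 CPM. At 4 h RGS20 stood at -0.33 (SE 0.14), called only without DMSO 4 h replicate 4 (-0.437) or IDE196 24 h replicate 3 (-0.331). RGS20 fell by 24 h, with 48.7, 42.6 and 29.9 CPM against 79.0, 71.3 and 79.8 CPM and a value of -0.97 (SE 0.14). RGS10 was higher at 24 h, at 0.59 (SE 0.12), with 21.7 to 25.7 CPM against 14.6 to 16.8 CPM. RGS12 was higher by 0.24 (SE 0.09) at 24 h, a call lost without DMSO 24 h replicate 5 (0.232) or 6 (0.215) or IDE196 24 h replicate 1 (0.243) or 3 (0.212), without the filter, or with all 48 libraries in a fit. At 4 h 5 of 8 genes were called, where 16.2% of all genes were, and at 24 h all 8, where 58.1% were. The replicates did not overlap for 6 of 8 genes at 4 h (30.1% of all genes) and for 8 of 8 at 24 h (65%). These comparisons were in the rule too.

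The change in the effect of IDE196 from 4 to 24 h was called for 3 of 8 genes, where it was for 30.7% of all genes. RGS16 differed by -2.41 (SE 0.48) and RGS20 by -0.64 (SE 0.20). RGS3 differed by -0.71 (SE 0.23), a call lost without DMSO 24 h replicate 6, IDE196 24 h replicate 1 or 3 or IDE196 4 h replicate 2 or 3, with values of -0.719 to -0.545, or with limma-voom. With all 48 libraries in a fit the calls of RGS20 and RGS3 were lost and that of RGS16 was not. RGS2, RGS14 and RGS19 were not called, at 0.58 (SE 0.35), -0.09 (SE 0.20) and 0.07 (SE 0.19). RGS10 stood at 0.45 (SE 0.17), not called, and was called without DMSO 24 h replicate 5 (0.505), DMSO 4 h replicate 5 (0.514) or IDE196 24 h replicate 3 (0.512).

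The 2 drugs were set against each other in 92-1 as a difference of effects, each against its own DMSO, in a fit of the 24 libraries, with no match of dose stated. At 4 h 5 of 8 genes were called, where 24.6% of all genes were, and at 24 h 6 of 8, where 33% were. RGS16 was higher with FHT-1015 than with IDE196 by 5.50 (SE 0.31) at 4 h and by 5.66 (SE 0.41) at 24 h on the log2 scale. For RGS2 the difference was 4.02 (SE 0.40) and 4.68 (SE 0.39). RGS16 at 24 h fell with both drugs and RGS2 moved in opposite directions. RGS14 differed by 1.21 (SE 0.18) and 1.11 (SE 0.18) at 4 and 24 h. RGS19 differed at 4 h by 1.33 (SE 0.21), and at 24 h its difference of 0.38 (SE 0.21) was not called. RGS3 differed at 24 h by 2.06 (SE 0.29), being higher with FHT-1015 and lower with IDE196. At 4 h its difference of 0.60 (SE 0.29) was called only without DMSO 4 h replicate 4 of the IDE196 experiment (0.794). RGS20 was lower with FHT-1015 at 24 h by a log2 difference of -0.97 (SE 0.21). RGS12 differed by -1.08 (SE 0.13) at 4 h and by -0.41 (SE 0.13) at 24 h, where the call was lost without DMSO 24 h replicate 3 of the FHT-1015 experiment (-0.35), without the filter, or with all 48 libraries in a fit.

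The 2 DMSO sets of 92-1 were themselves unlike. The shares of all genes called between them were 46.1% at 4 h and 45.2% at 24 h. Of the 10 melanocyte markers, 6 were higher and 2 lower in the DMSO set of FHT-1015 at 4 h and 5 higher and 2 lower at 24 h, with TYR at 1.42 (SE 0.14) and MITF at -0.49 (SE 0.11) at 4 h. Of 4 keratinocyte or epithelial markers tested, 3 at 4 h and 4 at 24 h were lower in the DMSO set of FHT-1015, with medians of -3.003 and -3.83 on the log2 scale, and of 5 fibroblast markers 3 and 1 were lower; their part in the RGS values was not tested. The levels in these sets are among the values that named the genes. At 4 h 3 of 8 genes were called between them and at 24 h 4 of 8. RGS20 was higher in the DMSO set of FHT-1015 by 0.85 (SE 0.15) at 4 h and by 0.72 (SE 0.145) at 24 h. RGS12 was lower in it, at -0.48 (SE 0.09) and -0.44 (SE 0.09). RGS14 was higher in it by 0.50 (SE 0.13) at 4 h. RGS16 differed by -0.82 (SE 0.18) at 24 h. At 4 h its value of -0.37 (SE 0.18) was not called. It was called without DMSO 4 h replicate 1 of the FHT-1015 experiment (-0.539) or DMSO 4 h replicate 5 of the IDE196 experiment (-0.493). RGS2 at 24 h, at -0.49 (SE 0.26), was not called, and was called without DMSO 24 h replicate 4 of the IDE196 experiment (-0.699). RGS3 differed by -0.58 (SE 0.20) at 24 h, a call lost without DMSO 24 h replicate 1 of the FHT-1015 experiment (-0.42) or DMSO 24 h replicate 6 of the IDE196 experiment (-0.43), when scaled by library size alone, or with all 48 libraries in a fit. Each drug effect was taken against the own DMSO set of that drug.

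Of 16 listed relatives, which include AXIN1 and AXIN2 and the RGS binding proteins RGS7BP and RGS9BP, 6 to 8 passed the filter in an experiment, and the others had too few reads. With IDE196 at 24 h, 6 of 7 were called, 4 higher and 2 lower, where 58.1% of all genes were called, with a median log2 fold change of 1.26 against 0.029 over all genes. RGS17, the third RZ gene, was higher by 2.12 (SE 0.46), RGS5 by 1.81 (SE 0.48) and RGS9 by 1.60 (SE 0.22). AXIN2, a scaffold and target of Wnt signalling, was higher by 1.26 (SE 0.26), AXIN1 was lower at -0.53 (SE 0.10), and RGS7 was lower at -3.79 (SE 0.72). RGS9BP was tested and not called, at 0.00 (SE 0.43). With FHT-1015 at 24 h in 92-1 4 of 6 were called, against 60.6% of all genes: RGS17 (1.20, SE 0.36), AXIN2 (0.99, SE 0.26) and RGS5 (0.93, SE 0.37) were higher and AXIN1 lower (-0.51, SE 0.11), and RGS9 stood at -0.03 (SE 0.19). In MP41 only AXIN2 of 6 tested was called at 24 h, at 0.91 (SE 0.25), against 36.1% of all genes, and in MEL202 none of 8 was called by edgeR, against 18.8% of all genes. There RGS5 stood at 1.46 (SE 0.50), with an unadjusted p of 0.01178 and the others above 0.05, and RGS11 and RGS13 stood at 1.69 (SE 1.36) and -0.45 (SE 0.73). DESeq2 called 1 of the list in MEL202 and limma-voom 4.

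Among the G protein subunits, GNAI1, an alpha subunit of the Gi class that RGS proteins act on, was called in each 24 h comparison. It was higher with FHT-1015 by 0.86 (SE 0.08) in 92-1, 1.47 (SE 0.26) in MEL202 and 2.25 (SE 0.21) in MP41, and lower with IDE196 at -0.83 (SE 0.08). In the counts that follow, the shares of all genes called at 24 h are 60.6% in 92-1 with FHT-1015, 18.8% in MEL202, 36.1% in MP41 and 58.1% with IDE196. Over the 11 alpha subunits tested at 24 h, 7, 2, 6 and 5 were called in that order, so that the first 2 counts were near the share of all genes. Of these 3 were higher and 4 lower in 92-1 with FHT-1015, 1 and 1 in MEL202, 4 and 2 in MP41, and 1 and 4 with IDE196. GNA12 was higher by 1.28 (SE 0.10) in 92-1 with FHT-1015, GNAO1 was lower at -1.62 (SE 0.50) in MEL202, GNAZ higher by 0.98 (SE 0.32) in MP41, and GNA11 lower at -0.59 (SE 0.08) with IDE196. Of the beta and gamma subunits, 1 was higher and 7 lower of 10 with IDE196 at 24 h, led by GNG12 (-2.17, SE 0.11) and GNG4 (-1.46, SE 0.12). With FHT-1015 at 24 h the counts were 1 higher and 4 lower of 10 in 92-1, 0 and 1 of 12 in MEL202 and 3 and 2 of 9 in MP41. GNB3 was lower in 92-1 (-2.16, SE 0.37) and MEL202 (-2.04, SE 0.62), GNB5 was higher in 92-1 (0.57, SE 0.13), and in MP41 GNG13 was lower (-2.93, SE 0.89) and GNB4 higher (1.92, SE 0.31).

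Downstream of Gq, the list of 21 effectors included phospholipase C beta, protein kinase C, Ras exchange factors and inositol trisphosphate receptors. With IDE196 at 24 h 10 of 18 tested were called, near the 58.1% of all genes, 5 higher and 5 lower, the largest being PLCB1 (-3.10, SE 0.14) and RASGRP3 (-2.56, SE 0.09), the link from diacylglycerol to Ras. With FHT-1015 at 24 h in 92-1 5 of 17 were higher and 8 lower, against 60.6% of all genes called. The calcium channel ITPR3 (-2.12, SE 0.13) and the kinase PRKCD (-1.97, SE 0.13) led. In MEL202 1 was higher and 4 lower of 17, against 18.8% of all genes, with PLCB2 at -2.01 (SE 0.36) and PRKCH at 1.32 (SE 0.27). In MP41 2 were higher and 5 lower of 18, near the 36.1% of all genes, with PLCB2 at -1.34 (SE 0.18) and ITPR3 at -1.23 (SE 0.44). Of 17 other G protein regulators, RASD1 and RASD2, small GTPases that affect Gi signalling, were lower at 24 h in MEL202 (-2.88, SE 0.48, and -3.21, SE 0.90) and in MP41 (-2.91, SE 0.38, and -2.003, SE 0.36). With IDE196 RASD2 was higher by 2.94 (SE 0.35) and the receptor kinase GRK5 lower at -1.61 (SE 0.14), while in 92-1 with FHT-1015 GPSM3 (-1.90, SE 0.30) and GRK5 (-0.93, SE 0.18) were lower.

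The genes with the pattern most like that of RGS16 were sought over the means of the 16 groups, among 10493 protein-coding genes with a mean of at least 5 CPM, by Pearson's r of log2 CPM. They were PLK3 (0.95), SLC25A22 (0.902) and EGR1 (0.89), and within the 8 groups of 92-1 they were SINHCAF (0.99), SLC35C2 (0.978) and PLK3 (0.976). EGR1, an early response transcription factor, read 12.2 ± 3.3 CPM in 92-1 DMSO at 4 h, 70.8 ± 9.8 with FHT-1015 and 0.957 ± 0.65 with IDE196, the latter against 14.9 ± 4.3 in its own DMSO (SD, n = 3 each). In MP41 at 4 h, where RGS16 was higher with FHT-1015, EGR1 read 12.4 ± 1.1 CPM against 17.7 ± 1.1 in DMSO (SD, n = 3 each). For RGS2 the nearest were CMTM3 (0.949), NCALD (0.935) and TMEM74 (0.926), and for RGS3 they were RND3 (0.977), CAND2 (0.956) and MEX3A (0.952). The groups share lines, DMSO sets and libraries, and the levels are set side by side across the 2 unlike DMSO sets of 92-1, so these values describe the 16 means and carry no test.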

How the data were processed

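Poly-A RNA of 48 cultures was sequenced with a kit that does not mark strand, per the labels' protocols. The authors deposited raw read counts per gene, 1 table a library, whose columns follow STAR's gene output; the aligner settings and annotation are not given in the sources used here. The build is hg38 and limma is among the tools, per the submitters' processing notes. The unstranded count was used, since the first strand held 49.73% to 50.11% of stranded reads. Symbols and exon lengths come from GENCODE release 29 and promoters from RefSeq (9 of the 10 genes matched). Spike-in controls had 0 reads.

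Each experiment of 12 libraries was fitted with edgeR 4.0.16 in R 4.3.3 (TMM, filterByExpr, quasi-likelihood F-tests, 4 groups as the only terms), after tests on simulated counts. Values per library are TMM CPM over all 48 libraries. The members, lists and tests were chosen with earlier results of these data known. Other genes are named by rule: listed relatives that passed the filter, the 2 largest called changes per list at 24 h, and the 3 nearest patterns. DESeq2 1.42.0, limma-voom (limma 3.58.1), other scalings, filters, sample sets and a replicate block were alternatives. No pair of libraries of a group differed by as little as sampling noise (chi-square per degree of freedom from 3.85). P-values measure the spread between these cultures, and read counts are not counts of molecules.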

Additional observations from a re-analysis of the deposited data

Results flagged for a closer look

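These differences are built from the values that named the genes, so each is a description with no p-value. The change in the effect of FHT-1015 from 4 to 24 h was called in an edgeR contrast of its own for these genes, with these log2 values: in 92-1 RGS16 (-2.25), RGS2 (1.24), RGS3 (0.75), RGS12 (0.79), RGS19 (-0.88) and RGS20 (-1.83), in MEL202 RGS4 (2.27) and RGS20 (-1.60), and in MP41 RGS16 (-2.20) and RGS19 (-0.99). That of IDE196 was called for RGS16 (-2.41), RGS3 (-0.71) and RGS20 (-0.64). With all 48 libraries in a fit the calls of RGS2 and RGS3 in 92-1 with FHT-1015 and of RGS3 and RGS20 with IDE196 were lost. The RGS16 difference had the same sign in 92-1 and MP41, and the MEL202 value was -0.36.

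The effect of FHT-1015 at 24 h was called among lines by edgeR for 4 genes, whose largest pairwise log2 differences were -2.11 for RGS16 and -1.65 for RGS12 (MP41 minus MEL202), 1.73 for RGS20 (MP41 minus 92-1) and -2.27 for RGS2 (MEL202 minus 92-1). RGS12 lay below DMSO in all 3 treated MP41 libraries and above it in all 3 treated MEL202 libraries.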

How the results depend on the processing

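No called value of a member changed sign under any alternative. Among values not called, leaving out a library turned the sign, with a shift of more than the pooled SD of the gene's replicates on the log2 scale, for RGS1 in MEL202 at 4 h (-0.579 to 0.643) and between times (-0.493 to 0.827), and for RGS2 in MEL202 between times (0.125 to -0.393, a shift within the SE of 0.57 of that difference). With all libraries kept, 18 values of members lost a call, 60 gained one, 4 moved beyond that SD and 1408 did none of these. Of the group levels, 59 moved by more than the SD and 101 did not with the stranded columns summed, and 24 moved and 136 did not with library size alone. The replicate number was not taken to pair the libraries, since in no experiment were all pairs above 0.1: the deviations from the group means, taken between an FHT-1015 and a DMSO library of one number, correlated from -0.629 to 0.81, above 0.1 in 12 of 18 pairs, and 13 correlated best with their own number. All 3 pairs at 4 h were above 0.1 in 92-1 and in MP41, and in these lines all pairs but 1 (92-1 at 24 h) correlated best with their own number, while the lowest values were those of MEL202. IDE196 and its DMSO share no numbers. With the replicate block no member lost a call and 3 values gained one by edgeR: RGS12 in MP41 DMSO at 24 against 4 h (0.604), where the count of members called went from 0 to 1, RGS12 between times in MP41 (-0.67) and RGS3 among lines at 24 h.

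In counts of members called, that MP41 DMSO count became 2 with no filter, 3 with DESeq2, 4 with limma-voom and 3 with all 48 libraries in a fit. For MP41 FHT-1015 at 4 h, 0 became 1 with no filter, 3 with limma-voom and 2 with only the groups compared, and at 24 h 5 became 3 with no filter and 2 with only the groups compared. For MEL202 at 4 h 0 became 1 with all 48, and at 24 h 2 became 5 with limma-voom and 4 with only the groups compared or all 48. The MEL202 difference between times went from 2 to 4 and that of IDE196 from 3 to 1 with all 48. Among lines at 4 h 0 became 1 with no filter or limma-voom. Leaving out each library gave ranges of 1 to 2 for the MEL202 difference between times, 2 to 6 for MP41 at 24 h, 1 to 3 for its difference between times and 0 to 4 for its DMSO. Counts of the pathway lists at 24 h also moved. In MEL202 limma-voom called 4 relatives, 6 alpha subunits, 6 beta and gamma subunits, 13 Gq effectors and 8 other regulators, against 0, 2, 1, 5 and 2 by edgeR, and in MP41 3 relatives, 11 alpha subunits, 14 effectors and 13 other regulators, against 1, 6, 7 and 8. With only the groups compared, MP41 gave 2 alpha and 2 beta and gamma subunits, against 6 and 5. With all 48 libraries, 92-1 gave 2 relatives and 3 beta and gamma subunits with FHT-1015, against 4 and 5, and 2 alpha subunits with IDE196, against 5. RGS1, RGS4 outside MEL202 and RGS16 with IDE196 at 24 h are limited by depth.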
